A study of Homo sapiens with 8 samples.

Results

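The Notch receptors NOTCH1, NOTCH2 and NOTCH3, the ligands JAG1, JAG2, DLL1 and DLL4, and the target genes HES1, HEY1 and NRARP were followed in RNA-seq libraries of Kyse510, an established human esophageal squamous cell carcinoma (ESCC) line. They were chosen by gene name, and these 10 genes are among 26360 listed in both deposited expression tables. The first table held 4 libraries, namely cells given vehicle (DMSO), cells given 7 µM of SP2509, which inhibits the histone demethylase LSD1, cells given 7 µM of UNC0642, which inhibits the histone methyltransferase G9a, and cells given both compounds, all for 2 days, with no separate dose stated for the combination. The second table held 4 libraries of stable lines selected with puromycin for 14 days, in which doxycycline (Dox) switches on a short hairpin RNA against LSD1 (shLSD1) or G9a (shG9a), each line without Dox and after 2 days of Dox. Each of the 8 conditions was 1 library, each control of a knockdown was, by the sample labels, the same line without Dox, and Dox itself cannot be told apart from the hairpin it induces. The study's own text names a non-silencing hairpin as the control of the knockdowns, which the labels do not mention. No difference below has a replicate check.

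Notch signalling passes between touching cells. A JAG or DLL ligand on one cell pulls on a NOTCH receptor on its neighbour, the receptor is cut by ADAM proteases and then by gamma-secretase, and the freed intracellular part enters the nucleus, where it joins the DNA-binding protein RBPJ and switches on HES1, HEY1 and NRARP. In stratified squamous epithelium such as that of the esophagus, Notch signalling is known for its part in the differentiation of cells leaving the basal layer, and NOTCH1 is often mutated in squamous cell carcinoma. RNA levels do not show how much receptor was cleaved, and in bulk samples fewer expressing cells and less RNA per cell cannot be told apart.

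The sequences before the transcription starts of HES1 and NRARP are shown because these targets moved apart in several comparisons. Both are given for 250 bases in RefSeq (GRCh38.p14), 5′ to 3′ on the strand of the gene, ending at the last base before the start. Capitals mark TGGGAA, the core letters that RBPJ is known to bind, which were searched on both strands (TTCCCA on the other).
HES1, chr3:194135898-194136147, plus strand: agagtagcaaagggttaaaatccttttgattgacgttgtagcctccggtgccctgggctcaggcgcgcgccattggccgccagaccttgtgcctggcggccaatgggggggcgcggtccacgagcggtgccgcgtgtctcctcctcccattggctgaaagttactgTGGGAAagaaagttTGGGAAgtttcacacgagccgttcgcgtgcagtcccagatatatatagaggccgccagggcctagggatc
NRARP, chr9:137302272-137302521, minus strand: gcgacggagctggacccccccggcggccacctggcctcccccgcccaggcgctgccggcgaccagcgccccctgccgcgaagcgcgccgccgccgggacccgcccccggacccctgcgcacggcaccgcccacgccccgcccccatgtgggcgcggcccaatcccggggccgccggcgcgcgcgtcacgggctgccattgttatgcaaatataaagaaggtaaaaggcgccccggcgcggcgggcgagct
HES1 held TGGGAA 2 times, starting 84 and 70 bases before its start, and the first of these matches was also GTGGGAA. NRARP held none in this window, which says only that these letters are not there. Other spellings were not searched, and any link between the matches and the changes of HES1 and NRARP was not tested. RefSeq promoters were matched for 8 of the 10 genes (not for DLL1 or HEY1), and the other 7 of these 8 held no TGGGAA. Of 35116 promoters of this length, 20.85% held TGGGAA at least once, 2.896% held it 2 or more times, and 5.428% held GTGGGAA.

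Levels are in FPKM (fragments counted per unit of transcript length and of library size), which is per length and so can be compared between genes. Intervals are exact 95% Poisson intervals for a level and Clopper-Pearson intervals for a ratio, computed from estimated reads, and they cover counting error only. Libraries held 15662035 to 17889466 reads. A difference was called at a Benjamini-Hochberg adjusted p under 0.05 (exact binomial test, two-sided, on reads in 2 libraries) together with a fold of at least 1.3 on the scale of FPKM + 1, among genes at 1 FPKM or more in at least 1 of the 2 libraries. Such a call compares libraries, not conditions. Log2 fold changes below are of FPKM + 1, treated over control, and understate the change of low genes. At least 6 of 7 squamous markers were at 1 FPKM or more in every library (summed 470 to 4741 FPKM), whereas 1 or 2 of 6 markers of other cells (fibroblasts, endothelium, leukocytes, gut and liver) were (summed 3.30 to 6.68 FPKM). The squamous sum moved with some results, mostly through KRT17. It went from 926 FPKM in vehicle to 4741 in SP2509, and with Dox from 2068 to 470 in shLSD1 and from 1913 to 592 in shG9a. In the combination the sum was 871 FPKM. There KRT5 (427 FPKM in vehicle and 163), TP63 (79.1 and 18.3) and DSG3 (28.6 and 9.63) were called lower, and KRT14, KRT17 and KRT6A higher. Of the markers of other cells, COL1A1 was called higher with SP2509 and the combination and lower with shG9a (2.92 to 5.36 FPKM over all libraries), and COL3A1 was called higher with SP2509 (0.347 and 1.501 FPKM). Their part in the results was not tested. Each targeted gene was called lower in its own line, since KDM1A (LSD1) was 26.0 FPKM in shLSD1 without Dox and 6.29 with Dox, and EHMT2 (G9a) was 7.85 FPKM in shG9a without Dox and 4.76 with Dox. KDM1A was also called higher in shG9a, at 26.4 FPKM without and 35.8 with Dox. Centred on the median of genes at 5 FPKM or more, that log2 fold change was 0.28, under the fold threshold. EHMT2 was also called lower in the combination, at 11.1 FPKM in vehicle and 5.38 with both compounds.

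In vehicle, 9 of the 10 genes were expressed at 1.68 to 20.8 FPKM and DLL4 was represented by 1 read (0.0134 FPKM). NOTCH3 (20.8 FPKM), DLL1 (20.5), JAG2 (19.5) and HES1 (19.1) came first, and neighbours among these 4 overlapped within counting error. NOTCH1 (15.7 FPKM), JAG1 (12.5), NOTCH2 (11.4), NRARP (9.81) and HEY1 (1.68) followed, and of these only NOTCH2 and NRARP overlapped as neighbours. In the lines without Dox the order began with DLL1 (54.8 FPKM in shLSD1 and 48.4 in shG9a), HES1 (41.9 and 42.1) and NOTCH3 (37.8 and 36.8), with no overlap between neighbours. The 2 tables were normalised separately, and the transcript lengths of some genes differ between them, so levels were not compared across tables. Between the 2 uninduced lines, for the 9 genes other than DLL4 the ratio of shLSD1 to shG9a lay between 0.989 (JAG2) and 1.28 (NRARP). These are different lines and not replicates, and their comparison is the nearest to a measure of spread that the libraries give.

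**Figure D1:**
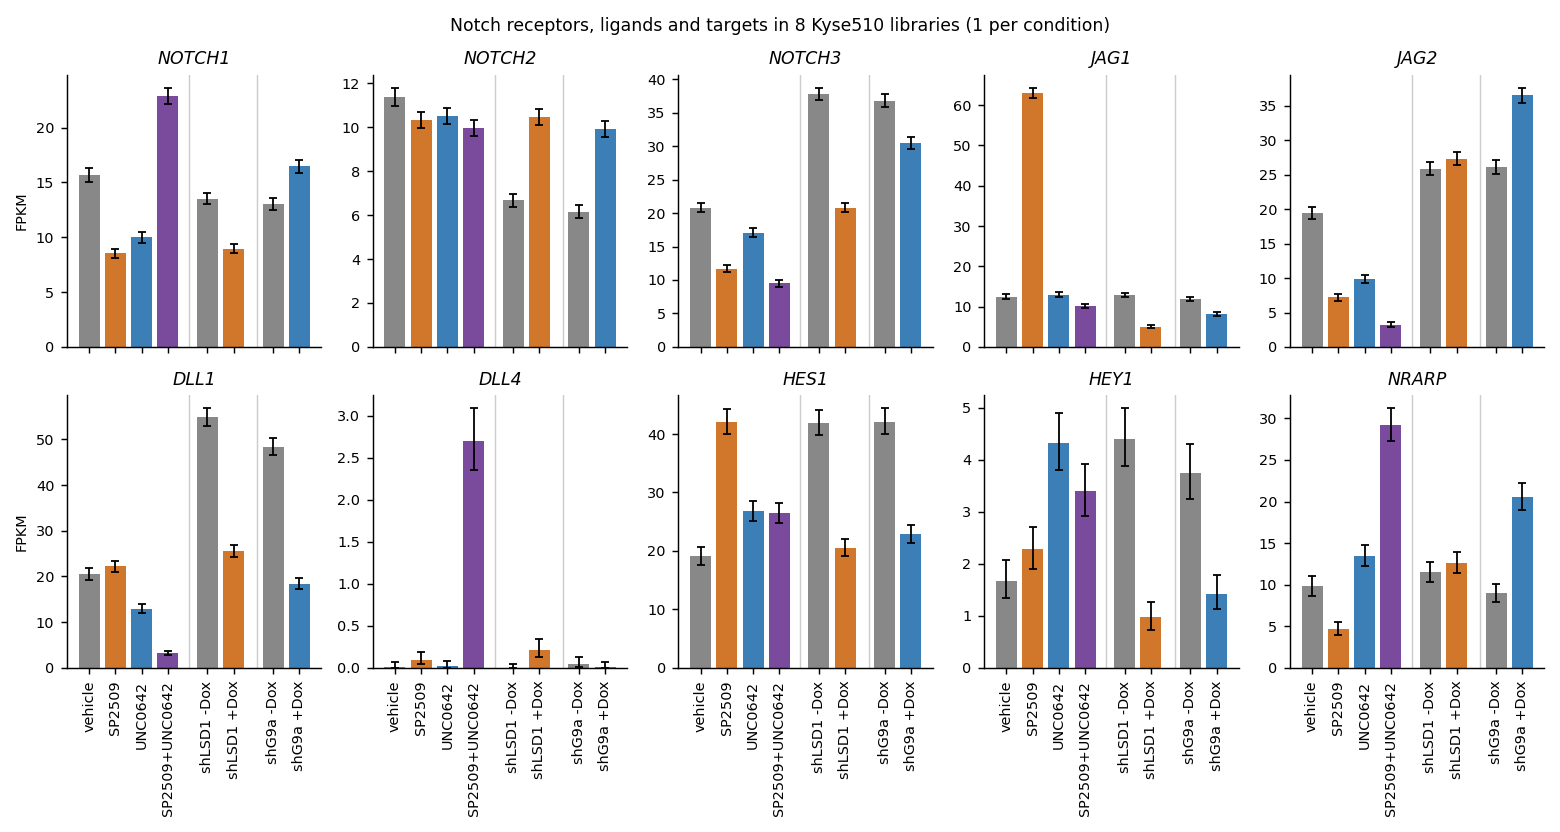
FPKM (y axis, from 0, with its own scale in each panel) of each of the 10 genes in the 8 libraries, 1 bar per library, coloured grey for controls, orange for LSD1, blue for G9a and purple for both enzymes targeted, with exact 95% Poisson intervals as error bars. Within the inhibitor table JAG1 stands at 63.1 FPKM in SP2509 and at 10.2 to 12.9 in the other libraries. DLL4 reaches 2.70 FPKM in the combination and at most 0.0945 in the other libraries of that table. In the knockdown table DLL4 is at most 0.216 FPKM, in shLSD1 with Dox.

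How many of these genes differed depended on the comparison, and so did the background. With SP2509, 2 genes rose and 4 fell of the 9 that passed the filter, where 55.3% of 13342 genes tested were called (18% up and 37.3% down), so the count is near the background. With UNC0642, 3 rose and 3 fell of 9, where 29% of 13244 genes were called (15.4% up and 13.6% down). With the combination, 5 rose and 3 fell of 10, where 57.7% of 13907 were called (28.8% up and 28.9% down). With shLSD1, 1 rose and 6 fell of 9, where 32.6% of 12970 were called (22.3% up and 10.3% down). With shG9a, 3 rose and 4 fell of 9, where 45.4% of 13080 were called (29.7% up and 15.7% down). Over the genes that passed, the median change in log2 was -0.83 with shLSD1, beside 0.13 over all genes tested, and -0.27 with shG9a, beside 0.18. It was -0.13 with SP2509 (all genes -0.21), -0.11 with UNC0642 (all genes -0.01) and 0.14 with both compounds (all genes -0.02). The 3 inhibitor comparisons share the vehicle library. Among genes at 5 FPKM or more in both libraries the median shifted by 0.11 with shLSD1 and 0.14 with shG9a, and relative to that shift the changes in those comparisons are lower by these amounts. DLL4 passed the filter only in the combination. Nothing particular to these genes is read from the counts.

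**Figure D2:**
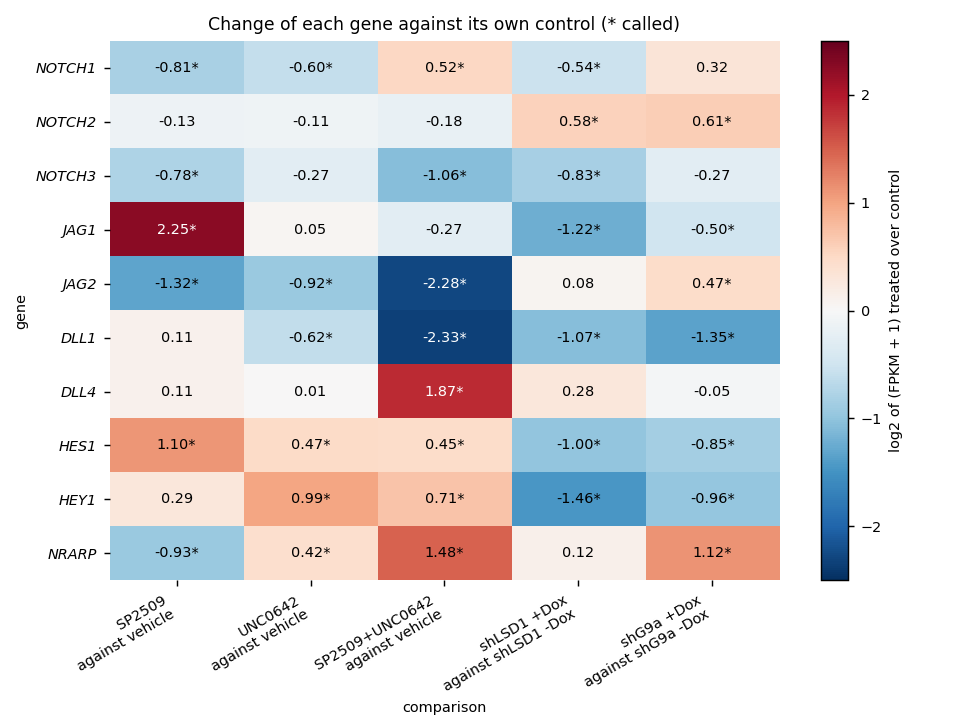
Log2 fold change of FPKM + 1, treated over its own control, for the 10 genes (rows) in the 5 comparisons (columns), coloured from blue (lower) to red (higher), with an asterisk on each call. The 3 target genes at the bottom carry both signs, and DLL1 is called lower in 4 of the 5 columns.

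Among the receptors, NOTCH3 was lower in every treated library than in its control and was called in 3 of 5 comparisons, NOTCH1 moved both ways, and NOTCH2 was called only in the knockdowns. NOTCH1 (ENSG00000148400, GRCh38 chromosome 9, 136494444 to 136545862, minus strand) encodes the receptor best known as a tumour suppressor in squamous epithelium. Its level was 15.7 FPKM in vehicle, 8.52 in SP2509, 9.98 in UNC0642 and 22.9 in the combination, so each compound alone was below vehicle and both together above it. The NOTCH1 difference was 1.84-fold lower with SP2509 (95% interval 1.73 to 1.97), 1.57-fold lower with UNC0642 (1.48 to 1.67) and 1.46-fold higher with the combination (1.39 to 1.54). Set against the single compounds, NOTCH1 in the combination was 2.69-fold the level in SP2509 (2.53 to 2.86) and 2.30-fold the level in UNC0642 (2.17 to 2.43). In the knockdown table NOTCH1 was 13.5 FPKM in shLSD1 without Dox and 8.97 with Dox, which was called (log2 -0.54), and 13.0 FPKM in shG9a without Dox and 16.5 with Dox, which missed the fold threshold (log2 0.32).

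NOTCH3 (ENSG00000074181, chromosome 19, 15159038 to 15200981, minus strand), a receptor of suprabasal cells and of vascular smooth muscle, was 20.8 FPKM in vehicle, 11.7 in SP2509, 17.1 in UNC0642 and 9.49 in the combination. It was 1.78-fold lower with SP2509 (95% interval 1.68 to 1.88) and 2.19-fold lower with the combination (2.06 to 2.33). The difference with UNC0642 had a log2 fold change of -0.27 and was not called. In shLSD1 NOTCH3 was 37.8 FPKM without Dox and 20.8 with Dox, 1.82-fold lower (1.74 to 1.89), and in shG9a it was 36.8 and 30.4 FPKM, which was not called at a log2 fold change of -0.27 but was called when ratios were centred on the median shift (log2 -0.41).

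NOTCH2 (ENSG00000134250, chromosome 1, 119911553 to 120069626, minus strand) has near-identical partial copies in the genome, the NOTCH2NL genes, so its reads may be split or shared and its values are uncertain. It differed little with the inhibitors, at 11.4 FPKM in vehicle and 9.96 to 10.5 in the 3 treated libraries (log2 -0.18 to -0.11). In the knockdown lines NOTCH2 was 6.67 FPKM without and 10.5 with Dox in shLSD1 (1.57-fold, 95% interval 1.48 to 1.66), and 6.15 without and 9.91 with Dox in shG9a (1.61-fold, 1.52 to 1.71). Both lines therefore reached a similar NOTCH2 level after Dox.

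Summed over the 3 receptors the level was 47.9 FPKM in vehicle, 30.5 in SP2509, 37.6 in UNC0642 and 42.4 in the combination. In the combination NOTCH1 was 54.1% of the sum (32.8% in vehicle) and NOTCH3 22.4% (43.5% in vehicle). In shLSD1 the sum was 58.0 FPKM without Dox and 40.2 with Dox, and in shG9a it was 56.0 and 56.8.

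Among the ligands, JAG1 rose 5.06-fold with SP2509, JAG2 and DLL1 fell most in the combination, and DLL4 was seen mainly there. JAG1 (ENSG00000101384, chromosome 20, 10637684 to 10674107, minus strand), a ligand of the Jagged class, was 12.5 FPKM in vehicle, 63.1 in SP2509, 12.9 in UNC0642 and 10.2 in the combination. SP2509 therefore stood alone, at 5.06-fold the vehicle level (95% interval 4.80 to 5.33), and JAG1 was then the highest of the 10 genes in that library. Neither UNC0642 (log2 0.05) nor the combination (log2 -0.27) was called against vehicle, and against SP2509 the combination was 6.20-fold lower (5.86 to 6.55). In shLSD1 JAG1 was 12.9 FPKM without Dox and 4.99 with Dox, 2.59-fold lower (2.39 to 2.81), opposite in direction to SP2509. In shG9a it was 11.9 and 8.14 FPKM, 1.47-fold lower (1.37 to 1.58).

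JAG2 (ENSG00000184916, chromosome 14, 105140981 to 105168824, minus strand), the other Jagged ligand, was 19.5 FPKM in vehicle, 7.20 in SP2509, 9.84 in UNC0642 and 3.21 in the combination. All 3 treated libraries were below vehicle, by 2.71-fold (95% interval 2.49 to 2.94), 1.98-fold (1.84 to 2.13) and 6.07-fold (5.41 to 6.82). The combination was below SP2509 by 2.24-fold (1.97 to 2.55) and below UNC0642 by 3.06-fold (2.71 to 3.46). The knockdowns did not follow, since JAG2 was 25.8 FPKM without and 27.3 with Dox in shLSD1 (log2 0.08, not called), and 26.1 without and 36.5 with Dox in shG9a, 1.40-fold higher (1.33 to 1.47). The shG9a call was lost when ratios were centred on the median shift (log2 0.33).

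DLL1 (ENSG00000198719, chromosome 6, 170282206 to 170306565, minus strand), a Delta ligand, was 20.5 FPKM in vehicle, 22.2 in SP2509, 13.0 in UNC0642 and 3.29 in the combination. The combination was 6.24-fold below vehicle (95% interval 5.32 to 7.36), and UNC0642 was 1.58-fold below it (1.44 to 1.74), whereas SP2509 was not called (ratio 1.08, 0.996 to 1.18, adjusted p = 0.0775, exact binomial test). DLL1 also fell in both knockdowns, from 54.8 to 25.5 FPKM in shLSD1 (2.15-fold lower, 2.02 to 2.29) and from 48.4 to 18.4 FPKM in shG9a (2.63-fold lower, 2.44 to 2.83). With 4 calls, all lower, DLL1 was the gene of the 10 called lower in the most comparisons.

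DLL4 (ENSG00000128917, chromosome 15, 40929340 to 40939072, plus strand), a Delta ligand best known from blood vessels, was represented by 1 read in vehicle, 8 in SP2509, 2 in UNC0642 and 217 in the combination, which is 0.0134, 0.0945, 0.0235 and 2.70 FPKM. The ratio of the combination to vehicle was 201, with an interval of 35.8 to 7989 because of the single vehicle read, and the ratio to SP2509 was 28.6 (14.3 to 67.1). In shLSD1 there were 0 reads without Dox and 18 with Dox, at least 6.08-fold higher against a floor of 3 reads in the library without Dox. In shG9a there were 4 and 1 reads, and neither knockdown passed the filter for a test.

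Summed over the 4 ligands the level was 52.5 FPKM in vehicle, 92.6 in SP2509, 35.8 in UNC0642 and 19.4 in the combination. In vehicle JAG1 made up 23.8% of the sum, JAG2 37.1% and DLL1 39.1%, whereas in SP2509 JAG1 made up 68.1%. JAG1 was also the main ligand of the combination, at 52.5% of a smaller sum, and DLL4 reached 13.9% there. In shLSD1 the sum was 93.6 FPKM without Dox and 58.1 with Dox, and in shG9a 86.5 and 63.1. The leading ligand changed from DLL1 (58.6% in shLSD1 and 55.9% in shG9a without Dox) to JAG2 (47.0% and 57.9% with Dox), although in shLSD1 with Dox JAG2 and DLL1 overlapped within counting error.

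**Figure D3:**
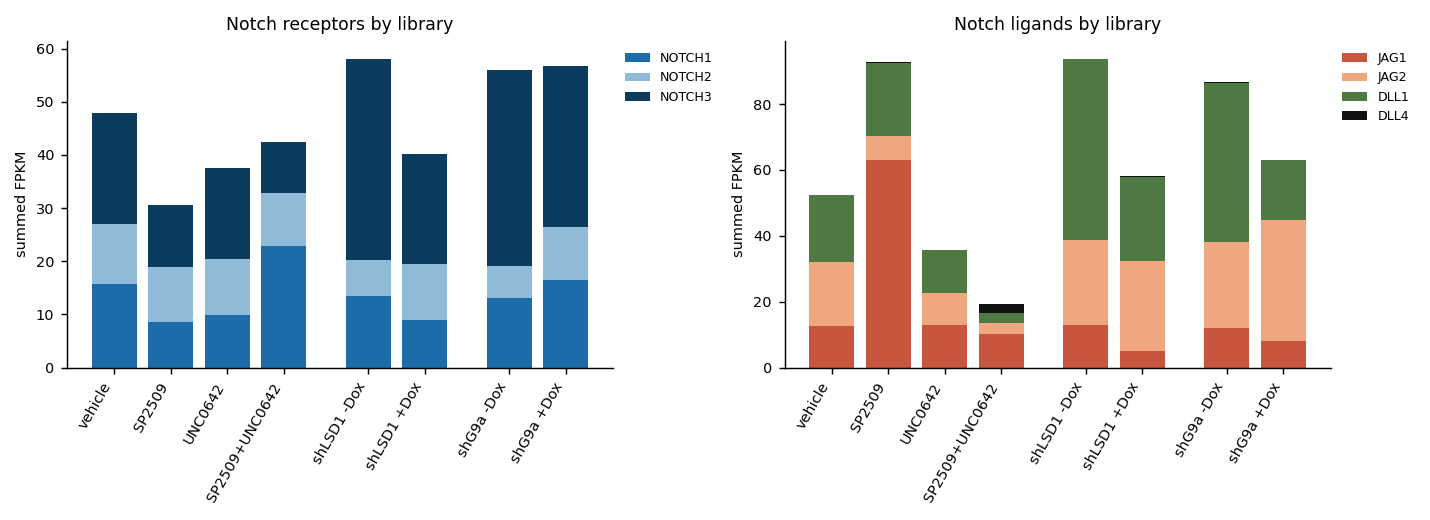
Summed FPKM (y axis, from 0) of the 3 receptors (left) and the 4 ligands (right) in the 8 libraries (x axis), 1 stacked bar per library with 1 colour per gene and no error bars. The ligand bar is 92.6 FPKM in SP2509, mostly JAG1, and 19.4 FPKM in the combination.

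The 3 target genes were all called higher with UNC0642 and with the combination, where 15.4% and 28.8% of all genes were. They did not move as a set with SP2509 or in the knockdowns. The genes were chosen with earlier results of these data known, so the shares of all genes give no test. HES1 (ENSG00000114315, chromosome 3, 194136145 to 194138732, plus strand), a transcriptional repressor and the classic Notch target, whose promoter is printed above, was 19.1 FPKM in vehicle, 42.1 in SP2509, 26.8 in UNC0642 and 26.4 in the combination. All 3 treated libraries were above vehicle, by 2.21-fold (95% interval 2.01 to 2.43), 1.41-fold (1.27 to 1.56) and 1.39-fold (1.25 to 1.54). The combination was below SP2509 (ratio 0.627, 0.577 to 0.681) and did not differ detectably from UNC0642 (ratio 0.985, 0.899 to 1.08). In both knockdowns HES1 was lower with Dox, at 41.9 and 20.5 FPKM in shLSD1 (2.04-fold, 1.87 to 2.23) and 42.1 and 22.9 FPKM in shG9a (1.84-fold, 1.69 to 2.01).

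HEY1 (ENSG00000164683, chromosome 8, 79764010 to 79767863, minus strand), a repressor related to HES1, had the lowest level of the 3 targets in every library. It was 1.68 FPKM in vehicle, 2.28 in SP2509, 4.32 in UNC0642 and 3.39 in the combination, resting on 85 to 250 reads. UNC0642 was 2.57-fold above vehicle (95% interval 2.01 to 3.33) and the combination 2.02-fold (1.55 to 2.64). With SP2509 the ratio was 1.36 (1.02 to 1.80, adjusted p = 0.0388, exact binomial test), and the fold of FPKM + 1 stayed under the threshold but passed it with a pseudocount of 0.1 or 0.01 and when centred (log2 0.38). HEY1 was lower in both knockdowns, from 4.41 to 0.972 FPKM in shLSD1 (4.54-fold, 3.38 to 6.19) and from 3.74 to 1.43 FPKM in shG9a (2.62-fold, 2.01 to 3.44).

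NRARP (ENSG00000198435, chromosome 9, 137300482 to 137302251, minus strand), a short ankyrin-repeat protein that Notch induces and that feeds back on it, differed from HES1 with SP2509 and in the knockdowns. It was 9.81 FPKM in vehicle, 4.66 in SP2509, 13.5 in UNC0642 and 29.2 in the combination, so SP2509 was below vehicle and the combination far above it. The NRARP ratio to vehicle was 0.475 with SP2509 (95% interval 0.386 to 0.583, adjusted p = 3.19e-13, exact binomial test), 1.37 with UNC0642 (1.17 to 1.60) and 2.97 with the combination (2.59 to 3.42). The combination was 6.26-fold the SP2509 level (5.25 to 7.50) and 2.17-fold the UNC0642 level (1.93 to 2.44), and NRARP ranked first of the 10 genes there, overlapping HES1. In shLSD1 NRARP was 11.5 FPKM without and 12.6 with Dox (ratio 1.10, 0.950 to 1.27, not called), and in shG9a it was 8.95 and 20.6 FPKM, 2.30-fold higher (1.99 to 2.67). The uninduced lines themselves differed in NRARP by a ratio of 1.28 (1.09 to 1.51), and the call held when the mean of both was the control.

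The ratio of HES1 to NRARP, in FPKM, was 1.94 in vehicle, 9.03 in SP2509, 1.99 in UNC0642 and 0.906 in the combination. It was 3.65 in shLSD1 without Dox and 1.63 with Dox, and 4.71 in shG9a without Dox and 1.11 with Dox. HES1 exceeded NRARP beyond counting error in 6 libraries, their intervals overlapped in the combination and in shG9a with Dox, and the ratio ranged most between SP2509 and the combination. No test of this ratio was made.

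The combination was also set directly against each single compound, which share these libraries with the comparisons above. Against SP2509, 4 genes rose (NOTCH1, DLL4, HEY1 and NRARP) and 4 fell (JAG1, JAG2, DLL1 and HES1) of 10, where 61.5% of 13658 genes were called (39.4% up and 22.1% down). The median shift in that comparison was 0.12, and when ratios were centred on it HEY1 was no longer called (log2 0.31) and NOTCH3 was called lower (log2 -0.39). Against UNC0642, 3 rose (NOTCH1, DLL4 and NRARP) and 3 fell (NOTCH3, JAG2 and DLL1) of 10, where 49.4% of 13637 genes were called (25.1% up and 24.3% down). NOTCH1 and NRARP were thus higher, and JAG2 and DLL1 lower, in the combination than in each single compound. DLL4 entered these counts, and that against vehicle, only through its level in the combination.

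Knockdown and inhibitor of the same enzyme were compared gene by gene, and the same split was made over all genes tested with both. For LSD1, NOTCH1 and NOTCH3 were lower with both shLSD1 and SP2509, no gene was higher with both, and JAG1 and HES1 moved in opposite directions. Another 5 genes were called in only one of the comparisons. DLL4 was below the filter in both, so it was not tested and has no counterpart in the split over all genes. Over 11769 genes, 1.55% were lower with both, 2.18% higher with both, 18.6% opposite and 43.6% called in only one. For G9a, NRARP was higher and DLL1 lower with both shG9a and UNC0642, and JAG2, HES1 and HEY1 moved in opposite directions. Another 3 genes were called in one comparison and NOTCH3 in neither, and DLL4 was again below the filter in both. Over 11906 genes, 3.97% were higher with both, 3.48% lower with both, 8.53% opposite and 42.2% called in only one. With so few genes nothing particular to them is read from these counts. At a fold of 2 no UNC0642 call remained, and so none of the 3 opposite cases of G9a. The difference between knockdown and inhibitor was not itself tested, and the arms differ in cell line, control and table.

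**Figure D4:**
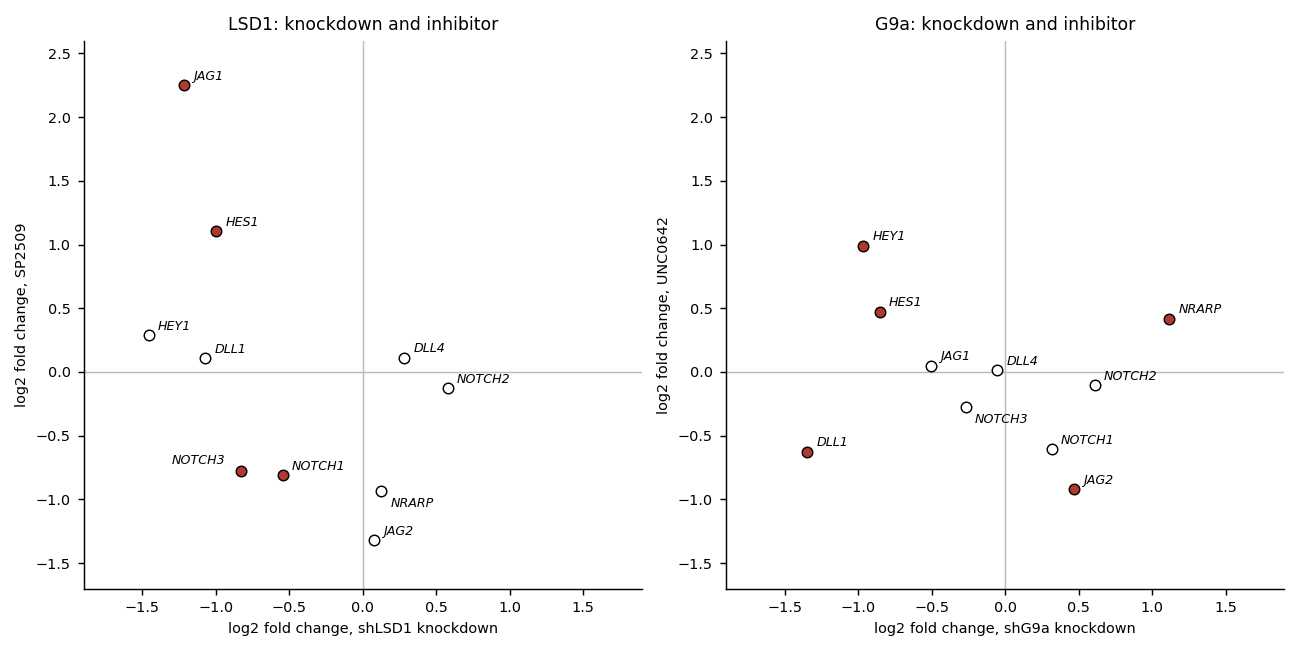
Log2 fold change of FPKM + 1 with the knockdown (x axis) and with the inhibitor of the same enzyme (y axis), 1 point per gene, for LSD1 (left) and G9a (right), with filled points called in both comparisons. JAG1 lies at -1.22 with shLSD1 and 2.25 with SP2509, and HES1 lies in the upper left of both panels.

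Other genes of the pathway were taken from a list of 57, covering further ligands, ligand ubiquitination, receptor glycosylation and proteases, nuclear partners, inhibitors and further targets. With SP2509, 11 rose and 17 fell of 45 tested, and with UNC0642, 10 rose and 5 fell of 49. With the combination 14 rose and 7 fell of 49, with shLSD1 11 rose and 7 fell of 48, and with shG9a 11 rose and 12 fell of 49. Some of the genes called, IVL among them, passed the filter only through the library where they were higher. The shares called, 62.2% with SP2509, 30.6% with UNC0642, 42.9% with the combination, 37.5% with shLSD1 and 46.9% with shG9a, were near or below those of all genes given above (55.3%, 29%, 57.7%, 32.6% and 45.4%). By direction, 14.3% fell with the combination, beside 28.9% of all genes, and 24.5% fell with shG9a, beside 15.7%. These gaps were not tested. The median log2 fold change of the listed genes was between -0.10 and 0.10 in all 5 comparisons. The 9 genes of the receptor proteases (ADAM10, ADAM17, the gamma-secretase subunits and FURIN, which cut the receptor) were all tested, and 0 rose and 3 fell with SP2509, 1 rose and 0 fell with UNC0642, 3 rose and 1 fell with the combination, 3 rose and 0 fell with shLSD1, and 3 rose and 1 fell with shG9a. The 33.3% that fell with SP2509 stand beside 37.3% of all genes, and the 33.3% that rose with the combination, shLSD1 and shG9a beside 28.8%, 22.3% and 29.7%. RBPJ, the DNA-binding partner of the cleaved receptor (named after its values were seen), was 7.18 FPKM in vehicle and 7.17 to 9.60 in the treated libraries. None was called, although SP2509 (9.60 FPKM, log2 0.37) was just under the fold threshold. In the lines RBPJ was 8.59 FPKM without and 4.62 with Dox in shLSD1 (log2 -0.77). It was 8.58 without and 4.22 with Dox in shG9a (log2 -0.87), and both were called lower. Of the 7 nuclear activators on the list, RBPJ among them, 2 rose and 1 fell with shLSD1, and 1 rose and 1 fell with shG9a. Of all genes, 22.3% rose and 10.3% fell with shLSD1, and 29.7% rose and 15.7% fell with shG9a.

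Of the keratinocyte genes that Notch is known to influence, CDKN1A, IVL and KRT10 were tested and KRT1 was below the filter throughout. All 3 were called higher in SP2509, where 18% of all genes were, and CDKN1A and IVL also in UNC0642 (15.4% of all genes) and in the combination (28.8%). IVL was called lower with shLSD1, where 10.3% of all genes were, and all 3 with shG9a (15.7%). These genes were listed with earlier results of these data known, so nothing is read from the counts. CDKN1A, the cell cycle inhibitor p21, was 10.8 FPKM in vehicle, 53.0 in SP2509, 38.0 in UNC0642 and 151 in the combination, which was 14.0-fold the vehicle level (95% interval 12.8 to 15.3). It was 41.3 FPKM without and 37.1 with Dox in shLSD1, and 45.3 without and 26.0 with Dox in shG9a. IVL, which encodes involucrin of the cornified envelope, was 0.297 FPKM in vehicle and 8.45, 10.4 and 10.3 in SP2509, UNC0642 and the combination. Each of its calls sets a library where it passed the filter against one where it did not. IVL had 10 reads in vehicle, and with Dox 24 in shLSD1 and 12 in shG9a. IVL was 4.55 FPKM without and 0.637 with Dox in shLSD1, and 3.65 without and 0.322 with Dox in shG9a. MYC, a growth regulator that Notch induces in some cells, was 137 FPKM in vehicle, 697 in SP2509 (5.10-fold, 4.97 to 5.24), 153 in UNC0642 and 182 in the combination. MYC was 219 FPKM without and 105 with Dox in shLSD1, and 206 without and 67.2 with Dox in shG9a. MYC was 1 of 8 further targets listed. Of those tested, 1 rose and 2 fell of 4 with SP2509 (all genes 18% and 37.3%). With UNC0642 2 rose and 1 fell of 5 (15.4% and 13.6%), and with the combination 3 rose and 0 fell of 5 (28.8% and 28.9%). In each knockdown 2 rose and 2 fell, of 5 with shLSD1 (22.3% and 10.3%) and of 6 with shG9a (29.7% and 15.7%). DLK2, a Delta-like protein held to oppose Notch, was 18.4 FPKM in vehicle and 7.11, 7.97 and 4.32 in SP2509, UNC0642 and the combination. DLK2 was 28.8 FPKM without and 26.8 with Dox in shLSD1, and 26.2 without and 21.3 with Dox in shG9a, with no call.

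The genes whose changes most resembled those of JAG1, JAG2 and HEY1, the 3 members with the widest range of change, were found by Euclidean distance over the 5 log2 fold changes among 11376 genes. Nearest to JAG1 were FRMD6 (distance 0.758), PXDC1 (0.879) and RNU1-106P (0.881), a small nuclear RNA pseudogene with near-identical copies whose reads are uncertain. Nearest to JAG2 were PTPN13 (0.345), FAT2 (0.351) and AC092658.1 (0.474), and nearest to HEY1 were SYDE1 (0.395), EFNA3 (0.501) and RARA (0.527). FAT2, an atypical cadherin of squamous epithelium, had log2 fold changes of -1.35 in SP2509, -0.59 in UNC0642 and -2.18 in the combination, and of 0.09 and 0.44 with shLSD1 and shG9a. The distances rest on 5 comparisons, 3 of which share the vehicle library, and are a description.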

How the data were processed

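Kyse510 cells were profiled by RNA-seq in 8 libraries, 1 per condition, grouped by the sample labels. The authors removed low-quality and adapter reads, aligned what remained to GRCh38 (a build also named in the submitters' processing notes) and deposited FPKM values in 2 tables, with 31582 genes for the inhibitors and 28942 for the knockdowns. The aligner, the counting tool, the differential test and the use of strand are not given in the sources used here, so reads of a gene and of an antisense transcript cannot be told apart. Columns of gene description were used only for names and positions.

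Because deposited FPKM values fall on steps of whole reads, the total of each library and the reads of each gene were estimated from them. A gene's length was the smallest that gives whole reads, or a multiple of it (up to 4 times, and up to 1.3 times the reference length from GENCODE release 44) that equals the reference or the length in the other table. This assigned 99.6% to 99.8% of each library's reads, and 3 genes of the inhibitor table had no whole reads. For the 10 genes the smallest length gave the same calls.

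Each treated library was compared with its own control (5 comparisons), and the combination also with each single inhibitor. Log2 fold changes used a pseudocount of 1. Reads were compared by a two-sided exact binomial test given the library totals, adjusted by Benjamini-Hochberg over all genes at 1 FPKM or more in at least 1 of the 2 libraries, and a call needed an adjusted p under 0.05 and a fold of at least 1.3. With 1 library per condition no test compares conditions. The study's threshold values on p and fold were kept and the adjustment added. The fold was taken on FPKM + 1, which is stricter for low genes than a fold of the values themselves. The genes named were the 10 members, KDM1A and EHMT2, the 3 called pathway genes that changed most upward and the 3 that changed most downward, and the 3 genes nearest to each of the 3 members with the widest range. RBPJ was added after its values were seen. The members and lists were chosen with earlier results of these data known. A gene of the pathway list is not reported here. Alternatives were pseudocounts of 0.1 and 0.01, no filter, a minimum of 5 FPKM, a fold of 2, centring on the median of genes at 5 FPKM or more, fold alone, unadjusted p, the smallest length, and the mean of both uninduced libraries as control. The procedure was tested on simulated data. Python 3.11.15, scipy 1.17.1, pandas 2.3.3, numpy 2.4.6 and matplotlib 3.10.9 were used.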

Additional observations from a re-analysis of the deposited data

Results flagged for a closer look

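In 5 cases a gene was called with knockdown and with inhibition of an enzyme in opposite directions, each arm being 1 treated and 1 control library, and the difference between the arms was not tested. Over all genes tested in both arms, 18.6% were opposite for LSD1 and 8.53% for G9a. The LSD1 cases were 2 of 9 genes tested, near that share. For LSD1 2194 genes were opposite, beside 257 higher and 182 lower in both arms. For G9a 1016 genes were opposite, beside 473 higher and 414 lower in both arms. For LSD1, JAG1 had a log2 fold change of -1.22 with shLSD1 and 2.25 with SP2509. HES1 had -0.996 with shLSD1 and 1.10 with SP2509. For G9a, JAG2 had a log2 fold change of 0.47 with shG9a and -0.92 with UNC0642, and its shG9a call was lost on centring (0.33). HES1 had -0.85 with shG9a and 0.47 with UNC0642, and HEY1 had -0.96 with shG9a and 0.99 with UNC0642. At a fold of 2 on the scale of FPKM + 1 the 3 G9a cases are no longer called. Without the added 1, HEY1 was 2.57-fold higher with UNC0642 and 2.62-fold lower with shG9a.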

How the results depend on the processing

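The 14 counts of members called up or down were recomputed under each alternative that applied, 130 values in all, and 119 stayed within 1.5 times the main count. With a fold of at least 2, the number lower fell from 4 to 1 with SP2509, both counts fell from 3 to 0 with UNC0642, and the number higher fell from 5 to 2 with the combination. With the same fold, shLSD1 had 0 higher (from 1) and 3 lower (from 6), shG9a had 1 higher (from 3) and 1 lower (from 4), and the combination against SP2509 had 2 lower (from 4). A minimum of 5 FPKM, which leaves fewer genes tested, reduced the number higher from 5 to 3 with the combination and from 4 to 2 with the combination against SP2509, since HEY1 and DLL4 were then not tested. Over 616 values for single genes, 0 reversed, 35 lost their call and 5 gained one, and of the 35, 25 did so with the fold of 2, 8 with the minimum of 5 FPKM and 2 with centring. Fold alone, an unadjusted p, no filter, the smallest length and the mean of both uninduced libraries changed no call. No paired analysis was possible because each condition was 1 library, and leaving out a library leaves nothing to compare. Depth limits DLL4, with 0 to 18 reads outside the combination, and to a lesser degree HEY1 and NRARP.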
